A study of Mus musculus with 4 samples.

Results

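The 9 genes described here encode ligand-controlled transcription factors of the nuclear receptor family: the retinoic acid receptor genes Rara, Rarb and Rarg, the retinoid X receptor genes Rxra and Rxrb, the vitamin D receptor gene Vdr, the lipid receptor gene Pparg, the glucocorticoid receptor gene Nr3c1 and Nr1h3, which encodes the oxysterol receptor LXR alpha. They were chosen by name, from 21755 protein-coding genes on the autosomes and X, and all 9 were found in the annotation. Every deposited peak and hotspot in the body of each gene or within 50 kb of it on either side was taken. The data were DNase-seq, in which the nuclease DNase I cuts accessible chromatin in nuclei, from mouse acute myeloid leukemia cells of strain C57BL/6J that the labels call differentiated in vitro. There were 4 libraries, 2 for each of 2 biological replicates, and both replicates carry the same donor identifier, with nothing said of separate cultures. The labels named no treatment, time point, genotype, inducing agent or control, and gave age and stage as unknown, so the groups compared are the replicates themselves.

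The authors had pooled both libraries of a replicate, which leaves 1 peak list and 1 hotspot list each. No value below therefore has a replicate error, and no test was run. The replicate 1 list held 236802 peaks and the replicate 2 list 67564, and the read depth behind either is unknown. A peak is a window of 150 bp with a score that is a whole number of unstated scale, with a median of 74 in replicate 1 (range 1 to 150) and 35 in replicate 2 (range 2 to 148), so a score says only how a peak ranks in its own list. A percentile below is that rank. Shared peaks are those with 1 bp or more in common with a peak of the other replicate, and promoter peaks those within 1 kb of the start of any transcript of a protein-coding gene. Of 10 myeloid marker genes, 9 had a shared promoter peak, and Elane had one in replicate 1 alone. Of all protein-coding genes, 58.2% had a shared promoter peak. The marker lists of other cell types, of 4 genes each, had 2 (endothelial), 1 each (B cell, erythroid, fibroblast and epithelial) or 0 (T cell and hepatocyte).

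Retinoic acid receptors bind DNA as partners of a retinoid X receptor and hold corepressors on their targets until all-trans retinoic acid is bound, when coactivators take their place. Retinoid X receptors are also the partners of the vitamin D receptor, PPAR gamma and the LXRs, whereas the glucocorticoid receptor waits in the cytoplasm with chaperones and acts as a homodimer. In the myeloid lineage, retinoic acid drives granulocytic maturation, vitamin D favours monocytic maturation, and in human acute promyelocytic leukemia the RARA gene is fused to partner genes such as PML.

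Open promoters were found at 8 of the 9 genes. Rara, Rarg, Rxra, Rxrb, Vdr, Pparg, Nr3c1 and Nr1h3 had a shared promoter peak, as did 58.2% of all protein-coding genes, and Rarb had no promoter peak in either list, as for 28.8% of all. None of the 9 had a promoter peak in replicate 1 alone, which held for 12.5% of all. Where the annotated start of the gene alone was counted, 5 of 9 remained, against 53.2% of all genes: Rara, Rarg and Vdr had their shared promoter peaks at internal starts. Of the 67 annotated transcript starts of the 9 genes, 33 had a shared peak within 1 kb, 12 had a peak in replicate 1 alone and 22 had none. Many of those starts lie within 1 kb of each other and share their peaks.

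The 9 windows held 367 peaks in replicate 1 and 112 in replicate 2. In replicate 1, 107 of the 367 were shared (29.2%, Wilson 95% interval 24.7 to 34.0%), against 26.1% over that list. In replicate 2, 107 of the 112 were (95.5%, 90.0 to 98.1%), against 91.9%. The intervals cover counting error only and treat peaks as independent, which neighbouring peaks of a locus are not, so they are too narrow. By gene, the share in replicate 1 ran from 19.2% at Vdr to 51.0% at Rxrb. Of the peaks in replicate 1, 55 lay at promoters of the 9 genes (24 shared), 50 at promoters of neighbouring genes (19 shared) and 262 outside promoters (64 shared). That is 24.4% outside promoters, near the 22.0% of all such peaks in replicate 1. Neighbouring genes own many of the sites in these windows, and a peak was not assigned to a gene by its distance.

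**Figure D1:**
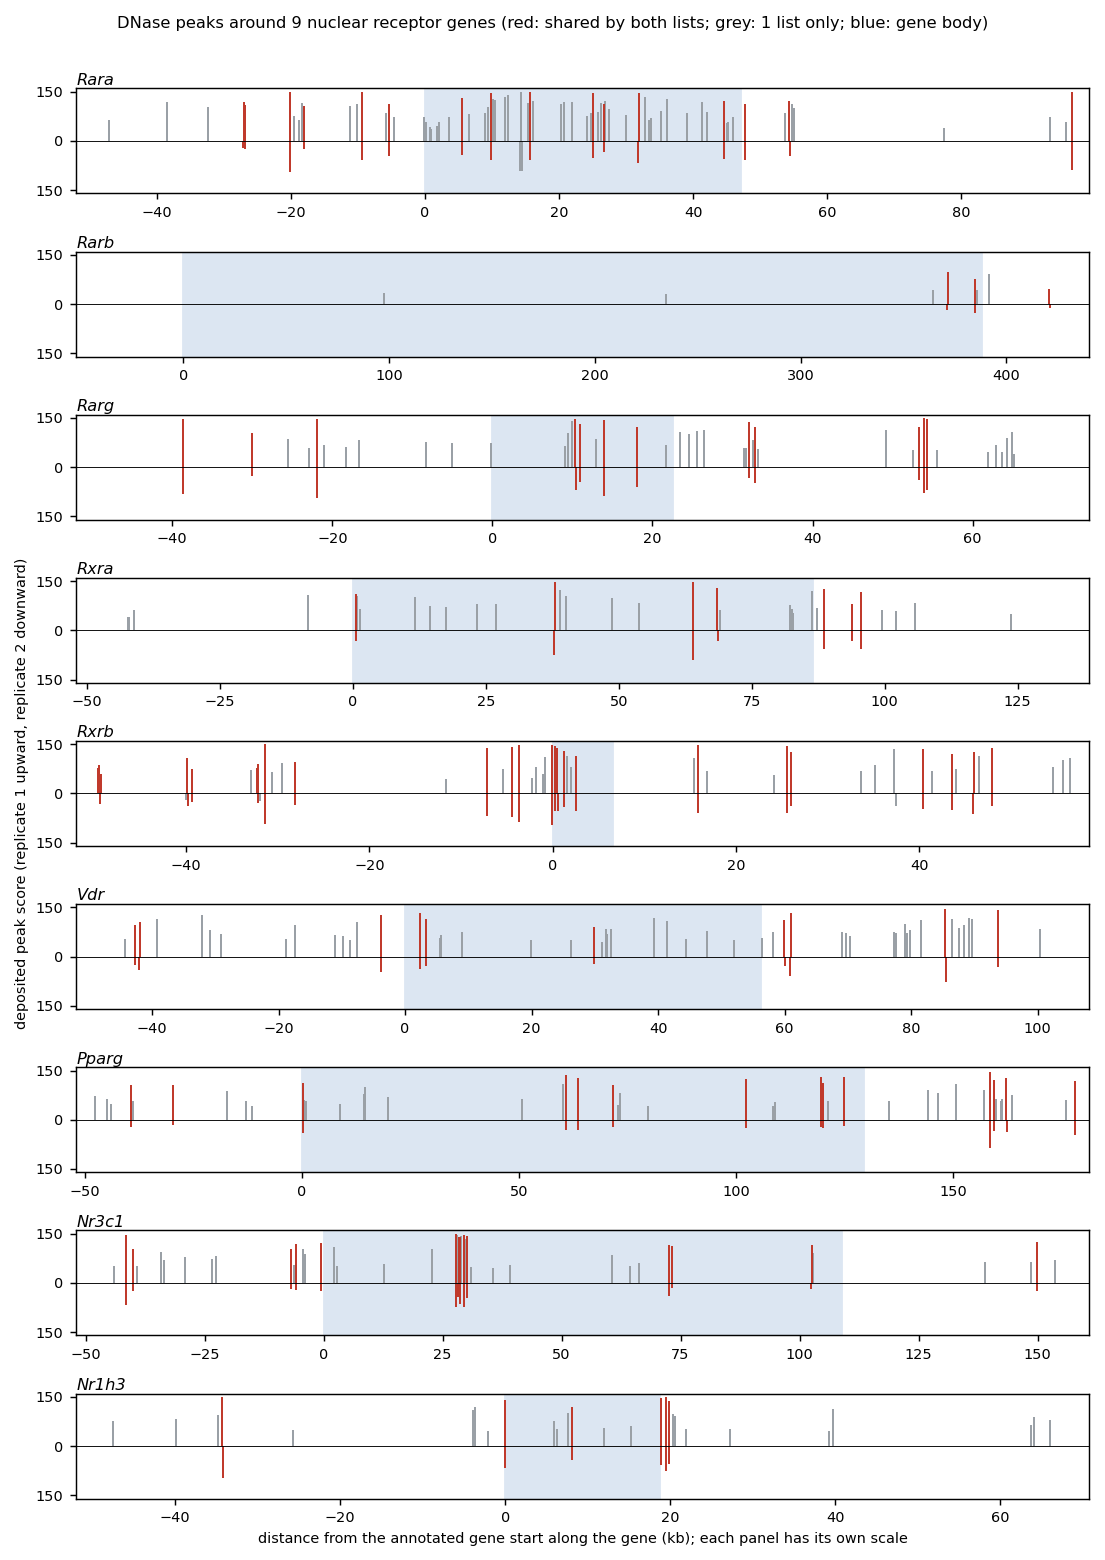
Peaks in each gene window by distance from the annotated gene start (kb, positive into the gene), with the deposited score upward for replicate 1 and downward for replicate 2; red marks peaks shared by both lists, grey peaks of 1 list and blue the gene body. Rara and Rxrb had the most peaks for their window length and Rarb the fewest, and the Nr3c1 cluster near 30 kb stands inside the gene.

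Rara, which encodes the receptor that retinoic acid uses in granulocyte maturation, spans chr11:98927818-98974942 on the plus strand. Its window held 71 peaks in replicate 1, or 48.3 per 100 kb, and 471 of the 21755 coding genes had as many or more per 100 kb, itself included. Within the body itself 45 peaks stood in replicate 1 and 7 of those were shared. At the annotated start only replicate 1 had peaks, with scores up to 72. The open starts were internal. The first, 9.9 kb downstream, had a peak that scored 146 in replicate 1 and 59 in replicate 2. The second, 32.6 kb downstream, scored 145 and 68. Another pair of starts, 11.9 kb downstream, had peaks of 141 and 135 in replicate 1 and none in replicate 2. All 4 of those peaks of replicate 1 rank in the upper part of its list, and both peaks of replicate 2 lie above its median.

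The strongest shared peak outside promoters in Rara was intronic, 15.7 kb from the start, with a score of 150 in replicate 1, the ceiling of that list, and 57 in replicate 2. It shares its mean rank (89.4 in percentiles) with a peak of 148 and 59 in an intron of Cdc6, a replication licensing gene upstream. The intronic peak lies in a hotspot of 3608 bp in replicate 1, from 98941191 to 98944798. Hotspots are the wider regions the authors called, and this was the widest in the Rara window. The same hotspot holds the strongest peak of replicate 1 without a counterpart in any of the 9 windows, at 98942036 with a score of 149. That absence is one of placement: replicate 2 had a peak of 92 only 10 bp away, at 98941876, and another of 91 at 98942216, inside its own hotspot of 774 bp. The sequences of both open starts and of the intronic peak are given. The first are the shared promoter peaks of Rara, and the last is the strongest shared peak outside promoters in its body. Other shared peaks of the window are not shown. The sequences are read from mm10, plus strand, with annotated UTR left out, and capitals mark a match to the RUNX motif TGTGGT.
Rara start at 9.9 kb, chr11:98937576-98937697: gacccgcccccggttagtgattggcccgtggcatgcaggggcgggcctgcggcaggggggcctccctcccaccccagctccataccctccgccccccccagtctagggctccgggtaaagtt
Rara start at 32.6 kb, chr11:98959616-98959765: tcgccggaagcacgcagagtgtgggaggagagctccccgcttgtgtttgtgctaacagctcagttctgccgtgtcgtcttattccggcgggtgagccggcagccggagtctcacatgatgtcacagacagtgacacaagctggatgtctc
Rara intron, RUNX match, chr11:98943456-98943605: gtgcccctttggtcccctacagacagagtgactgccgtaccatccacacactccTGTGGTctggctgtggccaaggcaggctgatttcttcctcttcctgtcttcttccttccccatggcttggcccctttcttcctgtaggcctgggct

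Rara had fewer shared peaks than its scores would give at the rate of the whole list, as a description with no test. If each peak in replicate 1 were shared as often as all peaks of its score range (bins of 10) and class (promoter or not), 30.0 of the 71 would be shared, and 16 were. The 9 windows together had 107, against 129.6 at that rate. Rarg (12 against 16.1), Vdr (10 against 14.7), Rxra (7 against 9.6), Nr1h3 (6 against 9.2) and Nr3c1 (14 against 16.0) lay below it too. Rxrb (25 against 21.1), Pparg (14 against 12.2) and Rarb (3 against 0.7) lay above. By score, 66 of 85 peaks of 120 or more were shared in the windows (77.6%, against 84.6% of all), 35 of 132 between 80 and 119 (26.5%, against 34.2%) and 6 of 147 between 40 and 79 (4.08%, against 4.59%). Neighbouring peaks of a locus are not independent of each other.

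**Figure D2:**
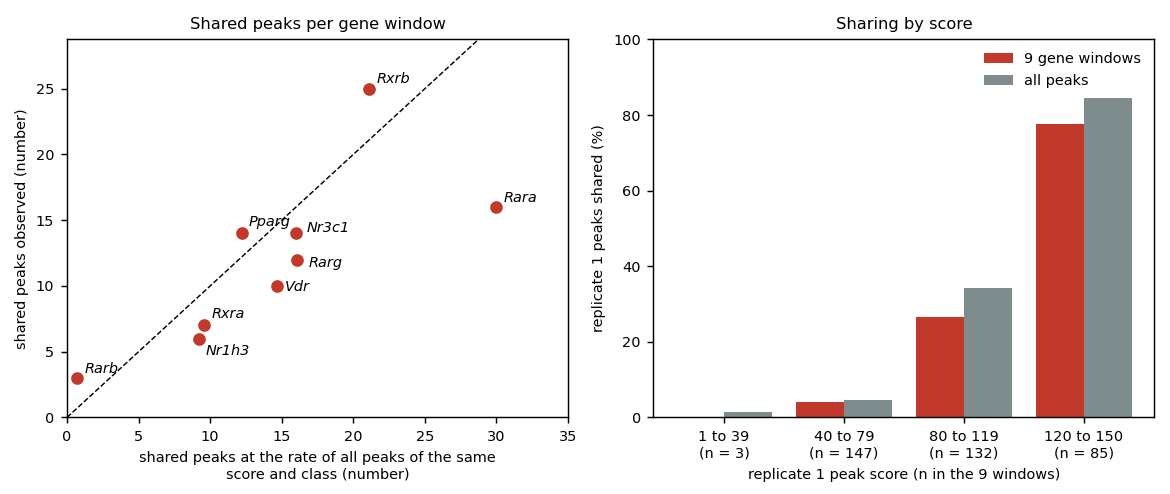
Left, shared peaks observed in each gene window (vertical axis, number) against the number at the rate of all replicate 1 peaks of the same score and class (horizontal axis), with the line of equality dashed; right, percentage of replicate 1 peaks shared in 4 score ranges for the 9 windows and for all peaks. Rara lies farthest below the line, at 16 against 30.0, and Rxrb farthest above it, at 25 against 21.1.

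Unshared did not always mean closed. Of the 260 peaks of replicate 1 without a counterpart, 6 lay in a hotspot of replicate 2 (2.31%, against 1.42% of all such peaks), and 12 had a peak of replicate 2 within 150 bp. Among the 9 that scored 130 or more, 5 had such a neighbour, at Rara, Rxrb and Nr3c1. The 4 others were 3 peaks at internal Rara starts (141, 135 and 133) and 1 in a Rarg intron (141), which lies in a hotspot of replicate 2. Neighbours within 150 bp were not counted for the rest of the replicate 1 list, so no share over all peaks stands beside these counts.

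Rarb encodes the retinoic acid receptor beta, a classical target of retinoic acid itself, and spans 388.3 kb at chr14:16430839-16819156 on the minus strand. It was closed at all 7 annotated starts in both lists. Its window had 8 peaks in replicate 1 and 3 in replicate 2, which is 1.64 and 0.614 per 100 kb, the lowest of the 9 genes and at percentile 12.2 of all coding genes for replicate 1. All 3 shared peaks stood at the far end of the gene or beyond it, 371.4, 384.6 and 420.8 kb from its start. That at 384.6 kb lay in an exon, within the bodies of both Rarb and its neighbour Top2b. That at 420.8 kb lay in a Top2b intron. The scores of the 3 peaks in replicates 1 and 2 were 99 and 19, 75 and 26, and 47 and 12. Their median percentile was 51.2 in replicate 1 and 12.8 in replicate 2, against 85.0 and 52.5 for all shared peaks. All 3 lay outside promoters, where all shared peaks had 81.1 and 44.3. Depth being unknown, no peak means none in these lists.

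Rarg encodes the third retinoic acid receptor and spans chr15:102234938-102257517 on the minus strand. Its annotated start had a peak of 75 in replicate 1 and none in replicate 2. The open starts lay inside the gene. At the start 13.9 kb downstream, the peak at 102243516 scored 145 and 89. At the start 11.0 kb downstream there were 2 peaks, 148 and 71 at 102247076 and 133 and 46 at 102246436. All 3 scored above the median of both lists. The shared peaks of the Rarg window had a median percentile of 94.2 in replicate 1 and 84.0 in replicate 2. All shared peaks had 85.0 and 52.5. Most of the Rarg ones were promoter peaks, and all shared promoter peaks had 92.9 and 78.4. A hotspot of 2446 bp in replicate 1 covered the start at 11.0 kb, and one of 1079 bp in replicate 2 held the stronger of its peaks. Of the 12 shared peaks of the window, 5 were promoters of neighbours, among them Espl1, which encodes separase, and Mfsd5. The strongest shared peak outside promoters, in an exon 18.1 kb from the start, scored 121 and 59. The stronger peak of the start at 11.0 kb and the part of the peak at 13.9 kb outside annotated UTR are shown as the open Rarg starts, with a C/EBP match, TTGCNNAA, in capitals.
Rarg start at 11.0 kb, chr15:102247076-102247225: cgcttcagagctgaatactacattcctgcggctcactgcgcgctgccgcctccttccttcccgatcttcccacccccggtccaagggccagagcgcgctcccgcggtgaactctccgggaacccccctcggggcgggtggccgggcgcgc
Rarg start at 13.9 kb, C/EBP match, chr15:102243590-102243665: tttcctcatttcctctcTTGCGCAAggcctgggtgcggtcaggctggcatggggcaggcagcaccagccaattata

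The retinoid X receptors are the common partners of most receptors described here. Rxra, at chr2:27676440-27762957 on the plus strand, had a modest peak at its annotated start, with scores of 110 and 32 in replicates 1 and 2. Its strongest promoter peak, 148 and 91, lay 64.0 kb downstream, at a start annotated only for a processed transcript with no coding sequence, so the annotation does not tell whether it acts as a promoter. An intronic peak 37.9 kb from the start scored 147 and 75. The 5 shared peaks outside promoters of this window included 3 beyond the end of the gene, with scores of 81 to 125 in replicate 1 and 33 to 57 in replicate 2. Sharing at Rxra was 7 of 32, and the density of shared peaks, 3.75 per 100 kb, was under the median of 4.89 over all coding genes.

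Rxrb, at chr17:34031812-34038399 on the plus strand, is the shortest of the genes, at 6.6 kb, and had 5 shared promoter peaks, scored 148, 144, 139, 129 and 115 in replicate 1 and 96, 53, 52, 40 and 53 in replicate 2. The strongest was centred 0.1 kb before the start. It and the peaks of 144 and 139 lay within 1 kb of the start of Slc39a7, a zinc transporter gene. By distance these sites belong to both genes. The hotspots over the strongest peak were 3827 bp wide in replicate 1 and 1178 bp in replicate 2. The window held 23.5 shared peaks per 100 kb, percentile 99.8 of all coding genes. It lies in the major histocompatibility region, and 7 of the 25 shared peaks were promoters of H2-K1, which encodes a class I antigen-presenting molecule, Ring1, H2-Ke6 and Col11a2. The H2-K1 promoter peak scored 150 and 92. Some peaks of this window overlap each other within the replicate 1 list, so 25 of its peaks met only 23 of replicate 2. The peaks shown for these genes are the strongest promoter sites of each, and capitals mark an E-box, CAGCTG.
Rxra start at 63.8 kb, E-box match, chr2:27740376-27740525: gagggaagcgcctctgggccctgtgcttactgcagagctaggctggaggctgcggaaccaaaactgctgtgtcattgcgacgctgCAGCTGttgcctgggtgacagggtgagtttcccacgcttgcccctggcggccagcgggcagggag
Rxrb gene start, chr17:34031663-34031785: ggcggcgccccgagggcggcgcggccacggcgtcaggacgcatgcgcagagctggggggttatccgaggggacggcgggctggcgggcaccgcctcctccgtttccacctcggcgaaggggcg

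**Figure D3:**
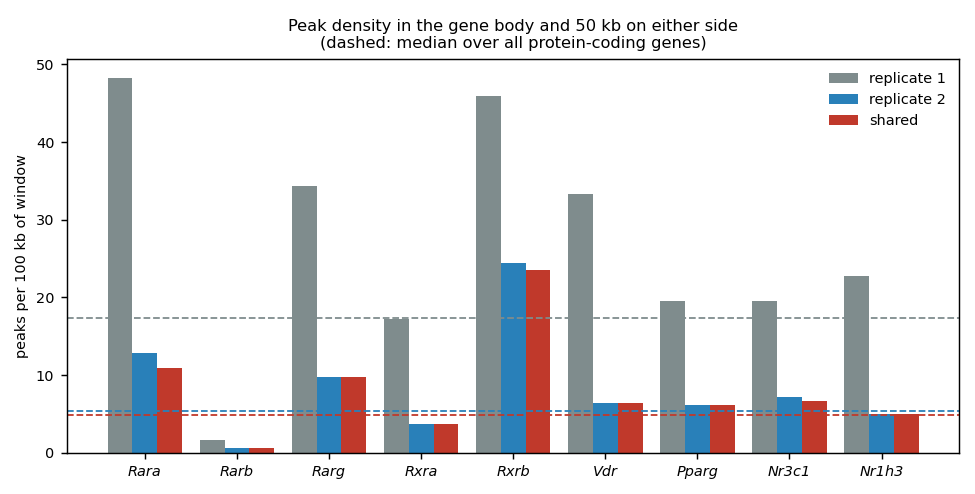
Peaks per 100 kb of gene window (vertical axis) in replicate 1, in replicate 2 and shared, for each of the 9 genes; dashed lines give the medians over all protein-coding genes (17.3, 5.33 and 4.89). Rxrb has 23.5 shared peaks per 100 kb and Rarb 0.614.

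Over the 9 windows, the median density of shared peaks was 6.4 per 100 kb, against 4.89 over all coding genes, and 3.83 against 2.55 outside promoters. Rarb and Rxra lay below the median of all genes, and the other 7 at or above 5.05. The median count of shared peaks outside promoters was 8, against 3, but most of the 9 genes are longer than the median coding gene of 17.4 kb.

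Vdr encodes the receptor for 1,25-dihydroxyvitamin D and spans chr15:97854425-97910630 on the minus strand. There was no peak at its annotated start in either list. The start 2.3 kb downstream had a peak of 134 in replicate 1 and 39 in replicate 2, and a second peak 3.2 kb from the gene start scored 116 and 29. Both rank lower than the median shared promoter peak, which scored 139 and 56. Outside promoters the window had 8 shared peaks. The strongest, 145 and 77, lay 85.4 kb from the start, in an intron of the neighbour Hdac7, a histone deacetylase gene, and held a match to the AP-1 motif TGANTCA. The promoter peak at 3.2 kb held one too, and in all 3 of the 10 shared peaks of the window did. Outside promoters it was 2 of 8, against 8.14% of all such shared peaks. Of all shared promoter peaks 3.33% held one. Several motifs were searched, and this one was picked out with the values known. These sequences are shown for their AP-1 matches, and for the KLF/SP matches, CCCCGCCC, at the open start; the second also has a RUNX match.
Vdr start at 2.3 kb, KLF/SP matches, chr15:97908311-97908405: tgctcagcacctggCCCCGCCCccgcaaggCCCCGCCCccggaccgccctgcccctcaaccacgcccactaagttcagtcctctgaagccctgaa
Vdr promoter peak at 3.2 kb, AP-1 and RUNX matches, chr15:97907316-97907465: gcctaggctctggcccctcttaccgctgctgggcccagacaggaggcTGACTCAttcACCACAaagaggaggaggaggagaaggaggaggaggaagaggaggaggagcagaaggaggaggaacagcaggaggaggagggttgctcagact
Vdr window, Hdac7 intron, AP-1 match, chr15:97825136-97825285: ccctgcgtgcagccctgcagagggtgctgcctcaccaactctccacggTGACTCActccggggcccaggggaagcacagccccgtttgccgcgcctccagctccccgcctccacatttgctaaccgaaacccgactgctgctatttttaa

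Pparg encodes PPAR gamma, a fatty acid sensing receptor of adipocytes and macrophages, and spans chr6:115360951-115490399 on the plus strand. It had 2 open starts. The annotated gene start scored 112 and 39 in replicates 1 and 2, and the start 61.1 kb downstream scored 137 and 31. The 14 shared peaks of the Pparg window had a median percentile of 84.7 in replicate 1 and 36.2 in replicate 2. All shared peaks had 85.0 and 52.5. Those outside promoters, as were 12 of the 14, had 81.1 and 44.3. A lower rank in replicate 2 was thus not particular to Pparg. The highest shared Pparg peak in replicate 2 lay 158.6 kb from the gene start, beyond the end of the gene, with 147 and 85. It stood in a cluster with peaks of 120 and 34 at 159.4 kb and 128 and 37 at 162.3 kb. The hotspot over that strongest peak was 2038 bp wide in replicate 1 and 673 bp in replicate 2.

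Matches to the C/EBP motif TTGCNNAA recurred at Pparg. C/EBP factors are basic leucine zipper proteins of granulocytes and fat cells. A match stood in 8 of the 14 shared peaks and in 7 of the 12 outside promoters, while over all shared peaks outside promoters 12.7% had one. Outside promoters, the other 8 windows together had 6 of 52. Among those peaks the Rara, Rarb and Rarg windows had no match, and Nr1h3 had no such peak. The Rarg match shown above stood in a promoter peak. This motif was singled out here after the values were seen. The matches lay at the start at 61.1 kb, in the introns at 63.7, 71.7 and 124.8 kb, and in all 4 peaks downstream of the gene. The intronic peak at 124.8 kb also had a PU.1 type ETS match, GAGGAAGT, whose last base is the first of the C/EBP match. Sequences of the start and of the strongest and the most motif-rich peak downstream show these matches in capitals, and the last also holds a RUNX match.
Pparg start at 61.1 kb, chr6:115421776-115421925: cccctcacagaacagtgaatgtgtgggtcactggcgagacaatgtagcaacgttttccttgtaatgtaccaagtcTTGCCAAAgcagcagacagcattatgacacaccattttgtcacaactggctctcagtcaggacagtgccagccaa
Pparg downstream peak at 158.6 kb, chr6:115519476-115519625: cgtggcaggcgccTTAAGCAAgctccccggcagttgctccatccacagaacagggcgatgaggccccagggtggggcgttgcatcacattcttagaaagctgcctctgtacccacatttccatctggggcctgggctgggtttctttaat
Pparg downstream peak at 162.3 kb, chr6:115523176-115523325: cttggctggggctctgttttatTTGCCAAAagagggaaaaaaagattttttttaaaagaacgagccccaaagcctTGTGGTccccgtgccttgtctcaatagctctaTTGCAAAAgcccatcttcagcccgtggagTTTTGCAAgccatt

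Nr1h3 encodes LXR alpha, which turns on cholesterol export genes, and spans chr2:91184061-91202834 on the minus strand. Its strongest promoter peak, 141 in replicate 1 and 66 in replicate 2, covered the annotated gene start, which belongs to a processed transcript, and lay within 1 kb of the start of Acp2, a lysosomal acid phosphatase gene. The coding transcripts start from 7.7 kb downstream, where the peak scored 118 and 43. Nr1h3 had no shared peak outside promoters. The other 4 shared peaks of its window were the promoters of Madd (149 and 75 at its strongest) and Ddb2, a DNA repair gene (150 and 96). The peak at the gene start is shown because Nr1h3 and Acp2 share it, with a match to the ETS motif CCGGAAGT in capitals, on the minus strand.
Nr1h3 gene start, ETS match, chr2:91202736-91202884: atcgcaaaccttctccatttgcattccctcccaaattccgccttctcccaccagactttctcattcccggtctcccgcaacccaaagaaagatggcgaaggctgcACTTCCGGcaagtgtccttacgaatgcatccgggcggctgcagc

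Motif matches over all windows are given beside their share in all peaks of the same class. Motifs were searched on both strands over the whole 150 bp, and matches to different motifs may overlap. Of the 64 shared peaks outside promoters, 13 had a C/EBP match (20.3%, against 12.7%), 7 of them at Pparg. A further count gave 10 with a RUNX match (15.6%, against 20.1% of all shared peaks outside promoters), 7 an AP-1 match (10.9%, against 8.14%), 8 an E-box (12.5%, against 10.6%), 6 a GATA match, AGATAA (9.38%, against 5.36%), 6 a CTCF match (9.38%, against 10.2%) and 3 a PU.1 type match (4.69%, against 7.49%). CTCF is the factor that anchors chromatin loops, and 3 of the 6 matches lay in the Rara window. Of the 24 shared promoter peaks of the 9 genes, 6 had a KLF/SP match (25.0%, against 20.2% of all shared promoter peaks).

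The hexamer AGGTCA, to which most of these receptors bind, stood in 4 of the 64 shared peaks outside promoters (6.25%, against 9.67%), in 3 of the 24 at promoters (12.5%, against 6.08%) and in 23 of the 198 peaks outside promoters in replicate 1 alone (11.6%, against 10.9%). Direct repeats of AGGTCA or its variants GGGTCA with AGTTCA and also GGTTCA, in any combination and with a spacer of 1 to 5 bases, the arrangement that retinoid X receptor dimers bind, were in none of these shared peaks. Nothing is read from that in so few peaks, since at most 0.105% of all shared peaks outside promoters held any one spacing. The glucocorticoid receptor type, an inverted repeat of GNACA with a spacer of 3, was in none either, against 0.292%. Among those 198 peaks, 2 held a direct repeat with spacer 5, the spacing preferred by retinoic acid receptors, against 0.0789% of all such peaks. They were weak peaks. One of 52 lay in a Vdr intron 19.9 kb from its start. One of 45 lay in an intron of Csad, a neighbour of Rarg, 61.9 kb downstream of the Rarg start. Both are shown because they are the only direct repeats among those 198. A match is a description of the letters and not of binding.
Vdr intron, minus strand, chr15:97890713-97890729: AGGTCAGGGCTAGGTCA
Rarg window, minus strand, chr15:102195587-102195603: GGGTCAGATTCAGGTCA

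Genes that work with these receptors were taken in lists by their role. All 8 corepressor genes had a shared promoter peak, with Ncor1 (149 and 85), Tbl1xr1 (147 and 86) and Gps2 (146 and 87) the strongest by mean rank. So did all 10 coactivator genes, led by the arginine methyltransferase gene Carm1 (149 and 105), Ncoa4 (148 and 104) and the Mediator subunit gene Med1 (148 and 92). Of 40 other nuclear receptor genes 20 had one, led by Esrra (150 and 112), Ppard (149 and 103) and Nr1d2 (149 and 101). A further 5 were open in replicate 1 alone, 2 had peaks in both lists that did not overlap, and 13 had none, such as Esrrg and Hnf4a.

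Retinoid metabolism and transport had 7 of 17 genes with a shared promoter peak. The retinaldehyde and retinol dehydrogenase genes Dhrs9 (146 and 79), Rdh11 (144 and 76) and Dhrs3 (144 and 73) led. The retinoic acid degrading enzymes Cyp26a1 and Cyp26b1 and the binding protein genes Crabp1 and Crabp2 had a promoter peak in replicate 1 alone. Aldh1a1, Bco1 and Cyp26c1 were among 6 with none. Of 10 retinoic acid targets 5 had a shared peak, among them Dhrs3 and Cebpe (132 and 56), a granulocyte factor gene, whereas Cd38, Stra8 and Rarb had none. The mouse counterparts of the human fusion partners of RARA had 12 of 13, led by Irf2bp2 (150 and 96), Nabp1 (147 and 112) and Stat3 (150 and 92). Pml scored 110 and 42, and Bcor had a peak in replicate 1 alone.

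The other receptors' targets were as follows. All 8 glucocorticoid targets had a shared promoter peak, led by the clock gene Per1 (150 and 98), the chaperone gene Fkbp5 (150 and 98) and the phosphatase gene Dusp1 (150 and 96). Of the 8 glucocorticoid receptor chaperones and enzymes 7 had one, led by Fkbp5, Stip1 (150 and 96) and Ptges3 (149 and 95). LXR targets had 6 of 8, led by Mylip (150 and 98), Lpcat3 (149 and 97) and Srebf1 (147 and 93). Nr1h3 itself is in that list and among the 6. PPAR gamma targets had 3 of 7, namely Angptl4 (123 and 46), Plin2 (132 and 30) and Lpl (63 and 16), and Adipoq, Cd36 and Pdk4 had none. Of 4 vitamin D enzymes 3 had one, Cyp2r1 (150 and 86), Cyp24a1 (135 and 55) and Cyp27a1 (112 and 26), and of 5 vitamin D targets 3, namely Cyp24a1, Cd14 (126 and 35) and Spp1 (132 and 32), with none at Trpv6. Each count stands beside the 58.2% of all coding genes, and an open promoter is not a measure of expression.

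**Figure D4:**
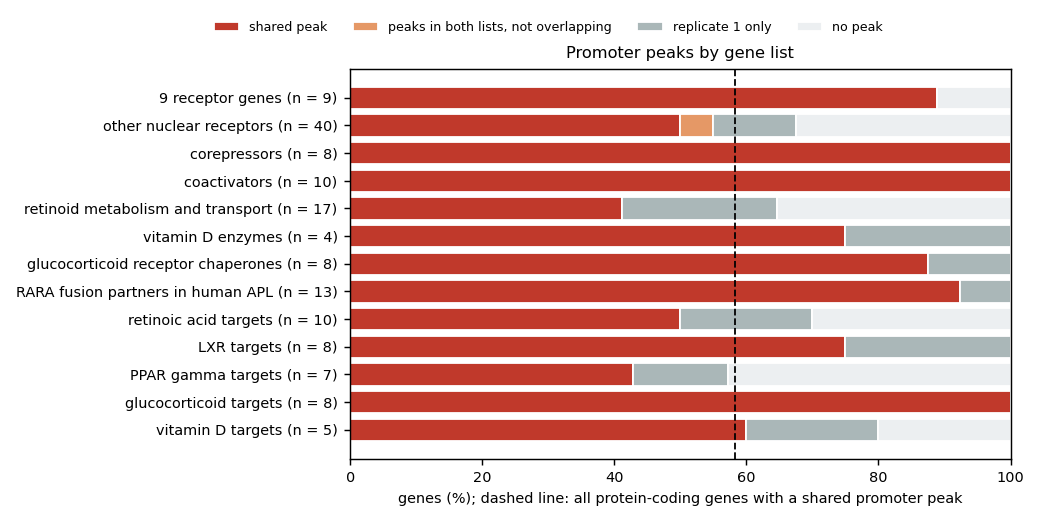
Percentage of the genes of each list (horizontal axis) with a promoter peak shared by both lists, with peaks in both that do not overlap, with a peak in replicate 1 alone or with none; n is the number of genes, and the dashed line is the 58.2% of all protein-coding genes with a shared promoter peak. The lists of 8 corepressors, 10 coactivators and 8 glucocorticoid targets are filled, and those of other nuclear receptors (20 of 40), retinoic acid targets (5 of 10), retinoid metabolism (7 of 17) and PPAR gamma targets (3 of 7) fall left of the line.

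Nr3c1, which encodes the glucocorticoid receptor, spans chr18:39410545-39519421 on the minus strand. Most of its annotated starts lie inside the gene, and there stood a row of 5 shared peaks between 27.8 and 30.1 kb from the annotated gene start. Their scores were 149, 141, 140, 147 and 142 in replicate 1 and 74, 44, 64, 72 and 47 in replicate 2, in order of distance. All 5 ranked above the median of shared promoter peaks in replicate 1 (139), and 3 of them did in replicate 2 (56). The gene start itself had a weaker peak, with 121 and 26. A single hotspot of 3720 bp in replicate 1 and one of 3195 bp in replicate 2 held all 5 of these peaks. The replicate 2 hotspot was the widest of that list in any of the 9 windows, where the next was 1178 bp at Rxrb.

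Outside promoters the Nr3c1 window had 8 shared peaks. The strongest, 146 and 66, lay 41.5 kb upstream of the gene. The other 7 scored 103 to 126 in replicate 1 and 16 to 40 in replicate 2. A peak of 147 among the internal starts had no counterpart, with a peak of replicate 2 of 44 at 90 bp.

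Scores of the 107 shared peaks were correlated between the lists (Spearman 0.788, against 0.794 over all 61881 shared peaks), as a description, since these peaks are not independent and share the 2 pooled alignments. Shared peaks at promoters of the 9 genes had medians of 140.5 in replicate 1 and 52.5 in replicate 2, and those outside promoters 118.5 and 34. The edge of the windows was not empty: the nearest shared peak left out lay 50.3 kb from Rxrb (138 and 79), and the farthest one kept lay 49.5 kb from the same gene (77 and 33). Hotspots numbered 298 in replicate 1 and 102 in replicate 2 over the 9 windows. At the ceiling of the deposited −log10 q value, 100, stood 53.0% of all hotspots of replicate 1 and 41.5% of those of replicate 2. In replicate 1 the gene windows had 28 of 49 hotspots there at Rara, 4 of 8 at Rarb, 18 of 35 at Rarg, 16 of 31 at Rxra, 22 of 39 at Rxrb, 21 of 44 at Vdr, 22 of 40 at Pparg, 18 of 31 at Nr3c1 and 11 of 21 at Nr1h3. In replicate 2 the numbers were 3 of 18 at Rara, 1 of 3 at Rarb, 6 of 11 at Rarg, 4 of 7 at Rxra, 10 of 23 at Rxrb, 3 of 10 at Vdr, 2 of 14 at Pparg, 3 of 11 at Nr3c1 and 3 of 5 at Nr1h3.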

How the data were processed

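DNase-seq sites of 4 libraries, 2 for each biological replicate, were analysed as deposited. Per the labels, coordinates are on mm10, and per the text files deposited with the samples both libraries of a replicate share 1 alignment. Caller, settings and depth: not given in the sources used here. The deposited peak score is a whole number of unstated scale, and the deposited hotspots carry a −log10 q value that starts at a q of 0.05 and stops at 100. Repeated peaks (48 and 5) were kept once. Starts and gene bodies came from GENCODE M21, and sequences from the GRCm38.p6 RefSeq genome, where 17 of 17 RefSeq promoter entries of the genes equalled the genome at their coordinates. Sites, ranks and motifs were computed with Python 3.11.15, pandas 2.3.3 and pysam 0.24.0, tested on simulated data.

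No test was run, since each replicate has 1 list, and counts are set beside all genes or all peaks where these were counted. All 9 genes are named, with the strongest shared promoter peak, shared peak outside promoters and unshared peak of replicate 1 of each, and of each list the 3 members with the highest mean rank and the first 3 without a peak. Some members that this rule names are not reported here. Further peaks were chosen after their values were seen, as were the C/EBP matches at Pparg and the AP-1 matches at Vdr. The genes and the 12 lists were chosen with earlier results of these data known. Alternatives were other windows, overlaps, score thresholds, list lengths and single lists.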

Additional observations from a re-analysis of the deposited data

How the results depend on the processing

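At the main settings 8 of the 9 genes, all but Rarb, had a shared promoter peak. The count held with a 500 bp promoter window, an overlap of 75 bp, peaks at or above the median score and lists of equal length. A window of 2.5 kb and either list alone also gave 8, but neither setting could lose a gene with a shared peak. Rarb had no promoter peak in either list, so the count from 1 list alone was fixed in advance. At the annotated gene start alone the count was 5. With the replicate 1 list shortened to the length of replicate 2, 59.2% of its peaks in the windows and 84.8% of those of replicate 2 were shared, and with an overlap of at least 75 bp 87.5% of those of replicate 2. Outside promoters alone, 24.4% of the replicate 1 peaks were. The 64 shared peaks outside promoters became 31 at or above the median score, 32 and 105 with windows of 10 and 100 kb, and 20 in gene bodies alone. With 1 list left out, 69 to 262 peaks stood there, the higher count from the replicate 1 list alone. The median density of shared peaks was 3.35 per 100 kb at or above the median score. These settings count fewer or more peaks by construction. No paired analysis was possible because no result comes from a test and each replicate has 1 list. Unknown depth limits every statement on a missing peak.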
